A study of Homo sapiens with 34 samples.

Results

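The 8 FGF ligands FGF2, FGF3, FGF4, FGF8, FGF10, FGF17, FGF18 and FGF19 were followed across 34 RNA sequencing libraries of differentiating human pluripotent stem cells (hPSCs). They were chosen by name as rows whose symbol equals one of these names in the tables of both replicates, and all 8 were found among 37951 gene identifiers. The cells were wild-type ESI017, an established human embryonic stem cell line, so each of the 17 conditions, with 2 replicates each, comes from 1 line in culture. The control was kept in mTeSR PLUS, a medium that holds hPSCs undifferentiated, and its labels give 48 h. The other cells were first turned into 4 primitive streak (PS) populations, collected at 24 h or moved to one of 3 media for a second day and collected at 48 h. DE(a) is the day 1 medium of the endoderm protocol, with activin at 100 ng/ml and 2 µM of CHIR, a compound that activates Wnt signaling. The anterior PS (APS) medium held less activin (30 ng/ml), more CHIR (4 µM) and bFGF at 20 ng/ml. For mid PS (MPS) CHIR was raised to 6 µM and BMP4 was added at 40 ng/ml, and the posterior PS (PPS) medium was that of MPS with the activin left out. The second-day DE(b) medium, for definitive endoderm, combined activin at 100 ng/ml with LDN, an inhibitor of BMP receptors, at 250 nM. PM medium, for paraxial mesoderm, had bFGF at 20 ng/ml, the same LDN, and A8301, which blocks activin receptors, at 1 µM. The labels and the stated protocol list no CHIR in PM medium. The study elsewhere describes Wnt activation as part of PM induction, and a description of its other experiments names CHIR there. Whether these PM cells also received CHIR is therefore uncertain. LM medium, for lateral mesoderm, had BMP4 at 30 ng/ml, the same A8301, and IWP2, which blocks Wnt secretion, at 4 µM. All differentiated cells therefore received CHIR on day 1, and bFGF, the FGF2 protein, was added to some media, whereas the libraries measure the mRNA that the cells made themselves. Conditions are named by day 1 and day 2, so that APS-PM stands for APS cells moved to PM medium.

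FGF ligands are secreted proteins that bind FGF receptors at the cell surface and signal largely through ERK, which in turn raises feedback inhibitors of the Sprouty, Spred and DUSP families. FGF8, FGF17 and FGF18 form one subfamily, FGF4 belongs to another, FGF3 and FGF10 are close to FGF7, FGF2 is close to FGF1, and FGF19 is a hormone-like FGF that needs a Klotho co-receptor. In the vertebrate gastrula FGF8 and FGF4 are made in the streak and are known for their part in the movement and fate of mesoderm, and FGF10 is known for its later part in heart and limb fields.

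Levels are given as CPM, the estimated count of a gene scaled to a library of 1e+06 counts, for replicates 1 and 2 in that order. Libraries held 15522780 to 23439799 estimated counts with a median of 19341117. The floor is 3 counts, and where no library of a group exceeded it a fold against it is a lower bound that covers counting error only. Differences were tested with edgeR's quasi-likelihood test on rounded counts with 1 mean per condition over all libraries. Log2 fold changes are given with the standard error (SE) of this fit, and a gene was called at a Benjamini-Hochberg adjusted p under 0.05 over the 17895 genes with enough counts, which include all 8 ligands. With 2 replicates per condition the p-values rest on the spread between replicates over all 17 conditions, moderated over genes. They do not rest on the replicates of the compared conditions alone. In bulk libraries a lower level can mean fewer cells that express a ligand or less of its RNA per cell, and these cannot be told apart.

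Markers of the labelled fates were measured first. The summed level of the streak genes TBXT, MIXL1 and EOMES was 1574 to 2955 CPM in the 24 h libraries against 1.58 to 1.86 CPM in the control. SOX17, FOXA2 and GATA6 summed to 582 to 1382 CPM in DE(b) medium, with GATA6 as the largest part in each condition, TBX6, MSGN1 and CDX2 to 371 to 466 CPM in PM medium, and HAND1, FOXF1 and ISL1 to 451 to 2263 CPM in LM medium. Within DE(b) medium FOXA2 was at 86 and 125 CPM from DE(a) origin and at 2.17 and 11 CPM from PPS origin, and SOX17 at 330.4 and 439.6 CPM and at 113 and 224 CPM. The study reported that FOXA2 was low in MPS-DE(b) as well, whereas SOX17 there was similar to the other origins except PPS. Markers of other cells were also measured. The amnion genes TFAP2A, GATA3 and VTCN1 were all detected in LM medium, where their sum was 62.1 to 312 CPM against 0.224 to 129 CPM in all other libraries of differentiated cells. The neural genes PAX6, SOX1 and HES5 summed to at most 0.957 CPM in any library.

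The ligand genes lie on 5 chromosomes in GENCODE v44 (GRCh38). FGF19 (chr11:69698238-69704022), FGF4 (chr11:69771022-69775341) and FGF3 (chr11:69809968-69819416) sit in a row on the minus strand, with 66999 bases between FGF19 and FGF4 and 34626 bases between FGF4 and FGF3. These 3 are the only protein-coding genes in that span of 121179 bases. FGF10 (chr5:44300247-44389706, minus strand) and FGF18 (chr5:171419647-171457626, plus strand) share a chromosome but lie far apart, and FGF2 (chr4:122826682-122898236, plus strand), FGF8 (chr10:101770109-101780371, minus strand) and FGF17 (chr8:22042398-22048809, plus strand) lie alone. FGF2 overlaps NUDT6 over 9540 bases and a long noncoding RNA gene over 6028 bases on the opposite strand, and FGF10 overlaps FGF10-AS1 over 975 bases. The libraries were made with a stranded kit, but the strand setting of the quantification is not given in the sources used here, so the levels of FGF2 and FGF10 are uncertain to that extent.

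Which ligand led, per length of gene, changed with the day 1 and day 2 treatment. Dividing CPM by the bases of a gene's joined exons puts the ligands on one scale. In the control FGF2 led at 35.3 CPM per kb and made 70.7% of the summed level of the 8 ligands. FGF17 led in DE(a) and APS cells at 24 h, at 110 and 84.4 CPM per kb, and FGF4 led in MPS and PPS cells, at 41.6 and 43.4 CPM per kb. FGF17 also led in all conditions of DE(b) and PM media, with 93.3% and 95.7% of the sum in DE(b) medium from DE(a) and from APS but 24.3% in PPS-DE(b). In PPS-DE(b) FGF17 and FGF2 were close, at 9.57 and 9.14 CPM per kb, and the lead rests on replicate 2, since in replicate 1 FGF8 was the highest. In LM medium the leading ligand was FGF10 in DE(a)-LM, at 12.5 CPM per kb, and FGF19 in APS-LM, MPS-LM and PPS-LM, at 48.4, 184 and 32.6 CPM per kb. The lead is a description of mean values with no test, and it uses the exons of all annotated transcripts rather than those used in these cells.

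**Figure D1:**
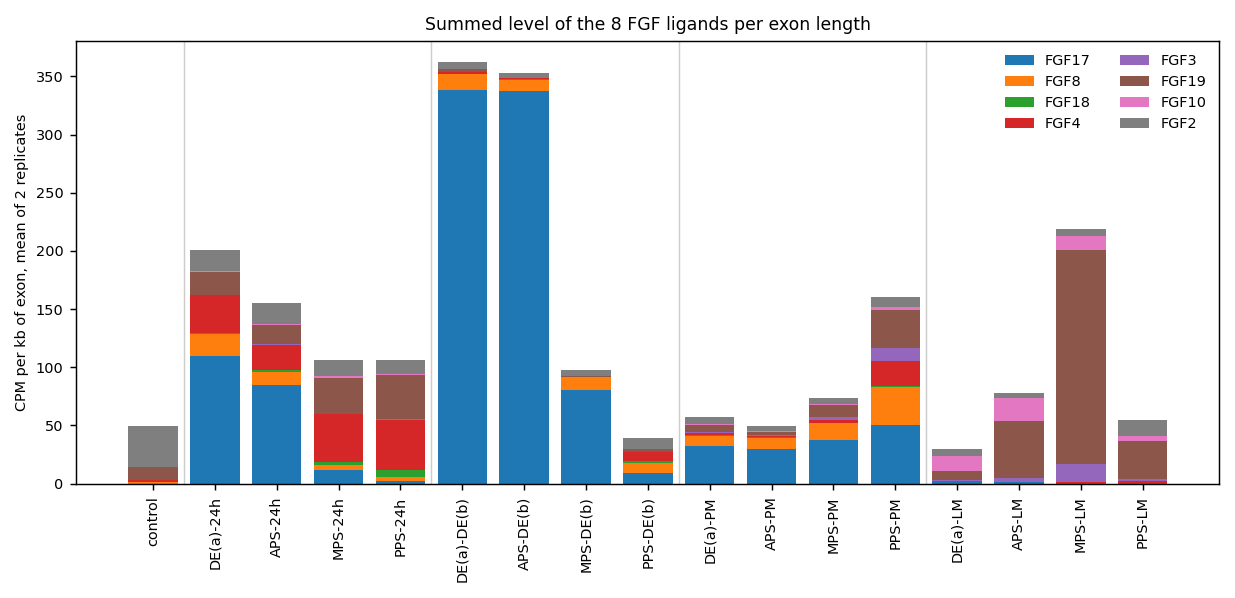
Stacked bars give the mean level of 2 replicates of each FGF ligand in CPM per kb of joined exons (vertical axis) in the 17 conditions (horizontal axis), grouped as control, 24 h, DE(b), PM and LM. FGF17 fills most of the 2 tallest bars, DE(a)-DE(b) with APS-DE(b) beside it, which sum to 362 and 353 CPM per kb, and FGF19 most of the bar of MPS-LM.

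The first comparison asked how ligand expression changed when hPSCs entered the streak. The control was kept in mTeSR PLUS and labelled 48 h, whereas the PS cells were in Essential 6 medium for 24 h. Streak entry, base medium and time therefore cannot be told apart in it. FGF4, FGF10 and FGF17 were higher in all 4 PS populations at 24 h than in the control, FGF2 was lower in all 4, and FGF8 was higher in DE(a) and APS cells. In counts of ligands called, DE(a) had 5 of 8, where 19% of all tested genes were called. Of these 4 were higher (10.3% of all genes) and 1 lower (8.68%). APS had 7 called (24.5% of all genes), 6 higher (13.6%) and 1 lower (11%). MPS had 7 (30%), 6 higher (16.5%) and 1 lower (13.4%), and PPS had 7 (29.8%), 6 higher (16.4%) and 1 lower (13.4%). The 4 comparisons share the same control libraries and are therefore not independent. FGF4, which hPSCs and streak cells are known to express, was at 3.48 and 5.48 CPM in the control, 90 and 116 CPM in DE(a), 68.3 and 70.6 CPM in APS, 96.2 and 167 CPM in MPS, and 121 and 154 CPM in PPS. Every PS library was above both control libraries. The log2 fold changes against the control were 4.63 ± 0.38 (SE) in DE(a), 4.04 ± 0.37 in APS, 4.97 ± 0.38 in MPS and 4.97 ± 0.38 in PPS, with edgeR adjusted p from 1.51e-09 to 2.75e-08.

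FGF17 was the ligand with the widest range. It held 3 counts in each control library, or 0.135 and 0.16 CPM, and rose to 415 and 307 CPM in DE(a) and 296 and 259 CPM in APS, which is at least 2448-fold and at least 1880-fold higher than the floor of the control. In MPS it was at 36 and 42.1 CPM and in PPS at 4.96 and 8.63 CPM, at least 265-fold and at least 46.1-fold higher. The edgeR adjusted p against the control was 1.21e-07 in DE(a), 1.33e-07 in APS, 5.03e-06 in MPS and 0.00119 in PPS. FGF8, of the same subfamily, followed the same order at lower levels. FGF8 was at 1.97 and 1.81 CPM in the control, 27.2 and 27.6 CPM in DE(a), 16 and 16.6 CPM in APS, 4.65 and 7.12 CPM in MPS, and 2.96 and 6.57 CPM in PPS. It rose by 3.94 ± 0.82 (log2) in DE(a) (adjusted p = 0.00118) and by 3.18 ± 0.80 in APS (adjusted p = 0.00471). The values in MPS (1.72 ± 0.78, adjusted p = 0.108) and PPS (1.34 ± 0.79, adjusted p = 0.217) did not pass the test, although all 4 libraries lay above the control. Without control replicate 2 the FGF8 difference in APS had an adjusted p of 0.0506.

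FGF10, a ligand known from limb and lung budding, was low at this stage but not at the floor. Its level was 0.271 and 0.213 CPM in the control, 3.89 and 4.19 CPM in DE(a), 6.3 and 7.59 CPM in APS, 3.95 and 8.06 CPM in MPS, and 3.26 and 3.01 CPM in PPS. The rise was 4.11 ± 0.62, 4.88 ± 0.60, 4.67 ± 0.60 and 3.67 ± 0.63 on the log2 scale, in that order, with adjusted p of at most 0.000107. Without MPS replicate 2 the value in MPS was 4.08. FGF18, the third member of the FGF8 subfamily, read 0.633 and 0.479 CPM in the control and rose in APS (2.80 ± 0.62), MPS (3.16 ± 0.63) and PPS (4.49 ± 0.65), with adjusted p of 0.00169, 0.000458 and 1.55e-05. In DE(a) it did not pass the test (1.54 ± 0.62, adjusted p = 0.0903). FGF3 had no count in either control library and at most 2 in DE(a), so no fold is given there. It rose to 0.307 and 0.736 CPM in MPS and 1.48 and 0.542 CPM in PPS, at least 3.54-fold and at least 6.86-fold higher (adjusted p = 0.00188 and 0.000356). In APS its 2 and 5 counts passed at an adjusted p of 0.0433, but leaving out APS replicate 2, control replicate 1 or control replicate 2 gave 0.203, 0.179 and 0.146.

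FGF2 was the ligand that fell. This growth factor, which also keeps hPSCs in the pluripotent state, was at 215 and 265 CPM in the control, 108 and 134 CPM in DE(a), 113 and 139 CPM in APS, 93.8 and 94.1 CPM in MPS, and 80.2 and 77.7 CPM in PPS. No PS library reached the lower control library. The log2 difference was -0.90 ± 0.27 in DE(a) (adjusted p = 0.0234), -0.85 ± 0.27 in APS (0.0248), -1.26 ± 0.28 in MPS (0.00118) and -1.58 ± 0.28 in PPS (0.000145). The calls in DE(a) and APS did not hold without control replicate 2 (adjusted p = 0.171 and 0.164) or without replicate 1 of DE(a) or of APS (0.177 and 0.150). FGF19, which is best known as an intestinal hormone, was already at 22 and 20.1 CPM in the control and rose in MPS, at 46.9 and 65.9 CPM, and PPS, at 56.3 and 82.2 CPM. Its log2 change was 1.52 ± 0.52 in MPS (adjusted p = 0.0288) and 1.74 ± 0.52 in PPS (0.0137). Both calls were lost without control replicate 1 (0.113 and 0.0712), control replicate 2 (0.136 and 0.0878) or the second replicate of the PS population (0.153 and 0.0936).

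**Figure D2:**
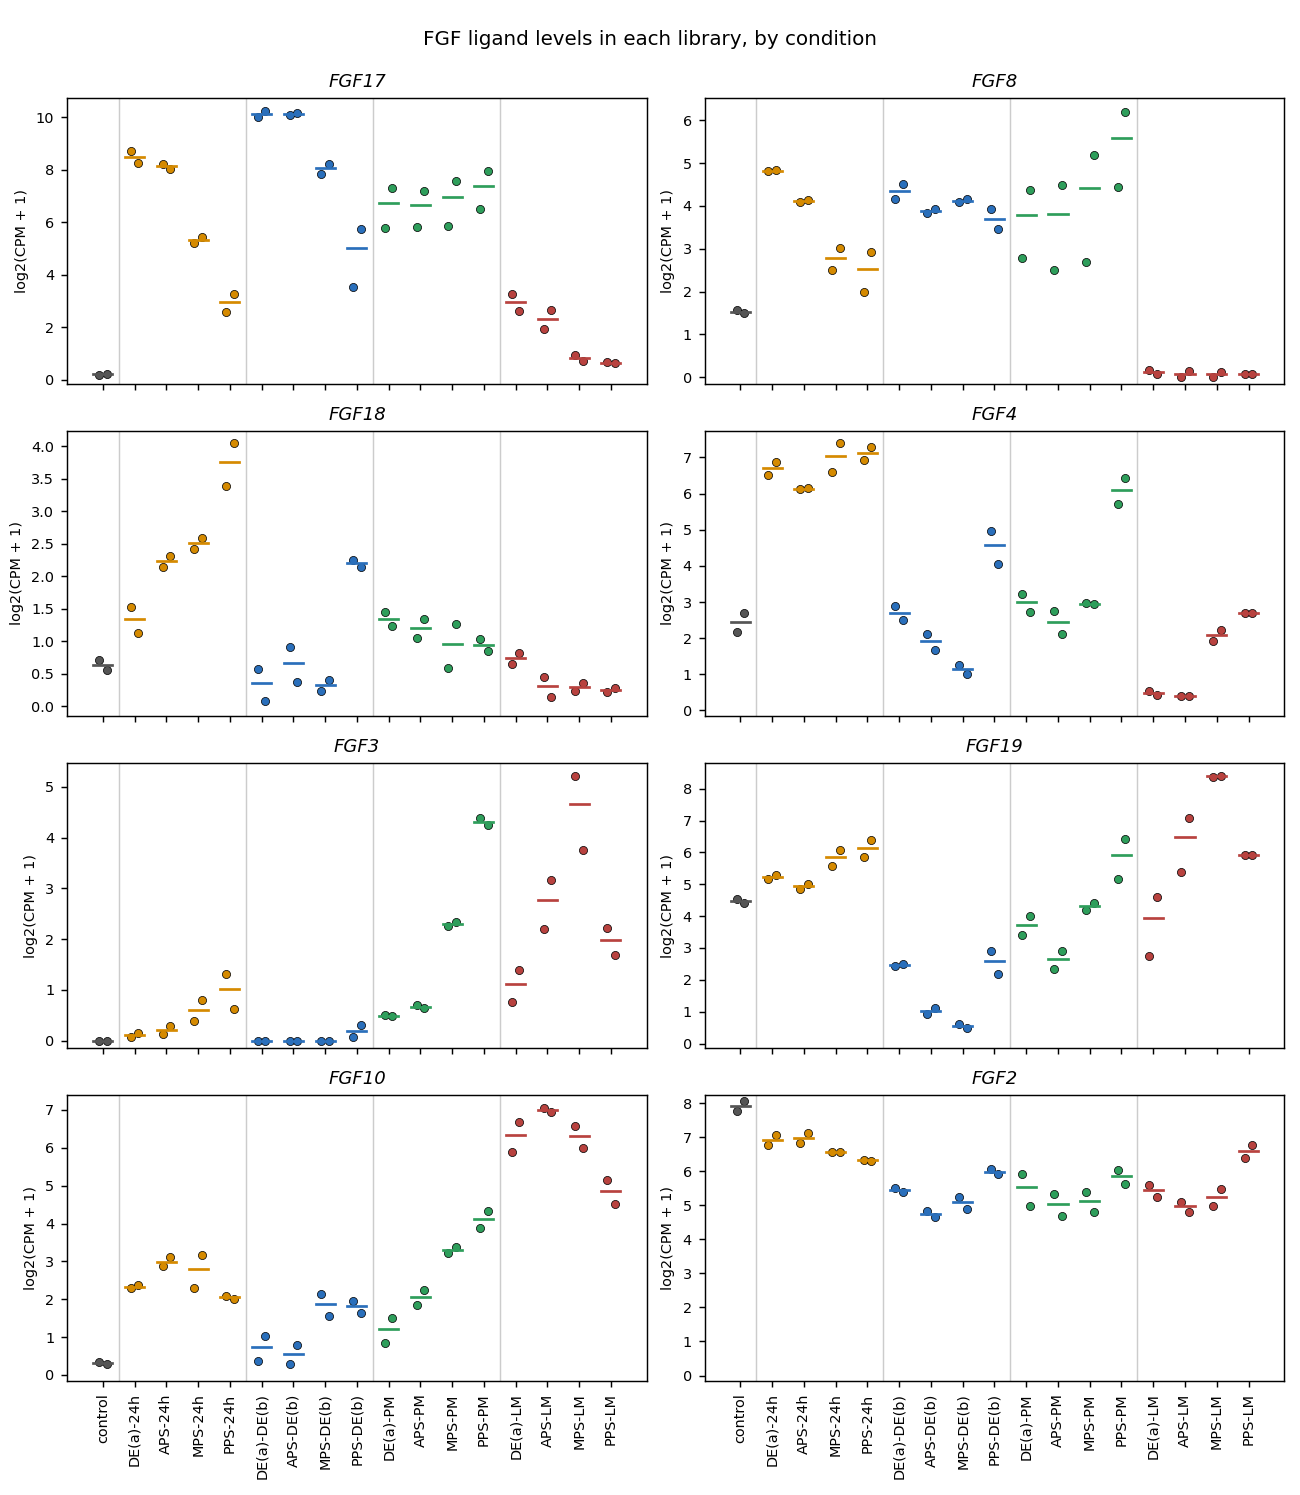
Each panel shows 1 FGF ligand, with log2(CPM + 1) on the vertical axis and the 17 conditions on the horizontal axis. Points are single libraries, replicate 1 left and replicate 2 right, and bars mark the mean CPM of both. FGF17 steps down from DE(a) to PPS at 24 h, FGF18 steps up, FGF10 is highest in the LM libraries, and FGF8 is near 0 in all of them.

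The next comparison asked which ligands told the PS populations apart at 24 h. FGF17 and FGF8 decreased and FGF18 and FGF3 increased from DE(a) to PPS, and these were the ligands called for a difference among the 4 populations (4 of 8, where 18.8% of all tested genes were called). The adjusted p of edgeR's test with 3 degrees of freedom was 1.37e-05 for FGF17, 0.00446 for FGF18, 0.0174 for FGF3 and 0.0317 for FGF8. The FGF17 call held in each of the 8 fits that left out 1 library. For FGF18 the call was lost without PPS replicate 2 (adjusted p = 0.0632). For FGF3 it was lost without DE(a) replicate 1 (0.0711) or PPS replicate 1 (0.108), and for FGF8 when any of 5 libraries was left out (up to 0.102, without PPS replicate 1). FGF2, FGF4, FGF10 and FGF19 did not pass (adjusted p = 0.169, 0.113, 0.158 and 0.282).

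Neighbouring populations were then compared. Between APS and DE(a) none of the 8 ligands was called, where 0.732% of all genes were, and DESeq2 also called 0. At an unadjusted p under 0.05 edgeR counted 1, FGF18 (log2 1.26 ± 0.58, adjusted p = 0.693). The difference in FGF17 between APS and DE(a) was -0.40 ± 0.61 (log2). From APS to MPS 1 ligand was called (2.93% of all genes, 1.89% higher and 1.03% lower), with FGF17 lower by 7.02-fold (log2 -2.81 ± 0.66, adjusted p = 0.0178). From MPS to PPS again 1 ligand was called (6.14% of all genes, 2.79% higher and 3.35% lower), with FGF17 lower by 6.11-fold (-2.61 ± 0.69, adjusted p = 0.0238). The libraries of each pair did not overlap. Both calls were lost when any one of the 4 libraries compared was left out, with log2 values of -2.91 to -2.71 and -3.05 to -2.26 and adjusted p of up to 0.193 and 0.121.

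FGF18 had its highest level of all 17 conditions in PPS at 24 h. It read 1.87 and 1.18 CPM in DE(a), 3.42 and 3.98 CPM in APS, 4.34 and 5.03 CPM in MPS, and 9.52 and 15.5 CPM in PPS. The PPS libraries lay above every other library of the study, and those of MPS above every other but these. The promoter of FGF18 is shown because it was the only one searched that held a match to a motif. That motif is the core site of TCF/LEF factors, through which CHIR acts. The MPS and PPS media held the same CHIR dose, and the part of CHIR in the FGF18 levels was not tested. The RefSeq table (GRCh38.p14) held 4 of the 8 ligands (FGF2, FGF3, FGF10 and FGF18), and the 250 bases before each start were searched on both strands for 3 motifs. The TCF/LEF core CTTTGAT is held by 2.26% of 35116 promoters of this length. The T-box site AGGTGTGA is held by 0.786% of them. The motif TATAAA, bound by TBP, is held by 10.7%. FGF18 held 1 match, the TCF/LEF core 174 bases before its start, in capitals here, and the other 3 held none.
FGF18, chr5:171419397-171419646, plus strand: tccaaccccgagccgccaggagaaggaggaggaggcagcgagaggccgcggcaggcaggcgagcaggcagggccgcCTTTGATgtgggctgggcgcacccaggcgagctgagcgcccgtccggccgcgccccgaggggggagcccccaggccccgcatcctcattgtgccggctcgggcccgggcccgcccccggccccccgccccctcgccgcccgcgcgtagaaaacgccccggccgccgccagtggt
The match is a description of these letters and not of binding. The GC content of this stretch was 78.8%, against a median of 58% over all promoters.

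After the second day most ligands had left their 24 h level, and each standard protocol was compared with the PS population it started from. In DE(a)-DE(b) 5 of 8 ligands were called, all lower (28% of all genes were called, 14.5% higher and 13.5% lower), and in APS-PM the same 5 names were called lower (25.1%, 11.9% higher and 13.2% lower), namely FGF2, FGF4, FGF10, FGF18 and FGF19. In MPS-LM all 8 were called (31.3% of all genes), 3 higher (14.4%) and 5 lower (16.9%). FGF4 was the ligand with the steepest loss that these 3 protocols shared. It fell from 90 and 116 CPM to 6.37 and 4.62 CPM in DE(a)-DE(b) (log2 -4.31 ± 0.37, adjusted p = 4.80e-08), from 68.3 and 70.6 CPM to 5.69 and 3.32 CPM in APS-PM (-4.05 ± 0.37, 5.71e-08), and from 96.2 and 167 CPM to 2.8 and 3.66 CPM in MPS-LM (-5.35 ± 0.39, 1.67e-09). No library of day 2 overlapped its 24 h population.

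FGF17 and FGF19 parted ways on day 2 of the endoderm protocol. FGF17 read 1034 and 1190 CPM in DE(a)-DE(b) against 415 and 307 CPM in DE(a) at 24 h. The libraries did not overlap, but the increase did not pass the test (log2 1.55 ± 0.62, adjusted p = 0.0677). It passed in a fit to the libraries of this comparison alone (0.00178), a setting that added 4 calls of single ligands and lost 9. It also passed without the filter on low counts, a setting that added 23 calls of single ligands and lost 2. FGF19 fell from 34.9 and 37.8 CPM to 4.38 and 4.58 CPM (-3.09 ± 0.57, adjusted p = 0.000323), and FGF10 from 3.89 and 4.19 CPM to 0.295 and 1.05 CPM (-2.69 ± 0.54, 0.00068), with values of -2.002 and -3.814 without DE(a)-DE(b) replicate 1 and 2. FGF18 fell to 0.492 and 0.0581 CPM (-2.48 ± 0.66, 0.00746), a call lost without DE(a)-24h replicate 1 (0.0610) or DE(a)-DE(b) replicate 2 (0.109, at -1.69) and at -4.63 without DE(a)-DE(b) replicate 1. FGF2 fell to 44.6 and 40.8 CPM (-1.57 ± 0.28, 0.000229). FGF8, at 17 and 21.9 CPM, did not pass (-0.57 ± 0.70, adjusted p = 0.597).

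In the paraxial protocol the fall was similar in kind. From APS to APS-PM FGF2 fell to 38.9 and 24.5 CPM (log2 -2.09 ± 0.28, adjusted p = 1.10e-05) and FGF19 to 4.04 and 6.41 CPM (-2.61 ± 0.55, 0.00122). FGF10 fell to 2.58 and 3.76 CPM (-1.23 ± 0.43, 0.0386) and FGF18 to 1.06 and 1.54 CPM (-1.61 ± 0.58, 0.0463). These last 2 calls were lost when any one of the 4 libraries was left out (adjusted p up to 0.225 and 0.230), and when the other libraries were kept out of the fit the count of ligands called was 3. FGF17, at 54.9 and 143 CPM, did not pass (-1.59 ± 0.63, adjusted p = 0.0683). It passed without the filter on low counts, the setting that added 23 calls. With the replicate number as a block in the edgeR fit it also passed (adjusted p = 0.0113).

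The lateral protocol exchanged one set of ligands for another. FGF10 rose from 3.95 and 8.06 CPM in MPS to 94.9 and 63.4 CPM in MPS-LM (log2 3.71 ± 0.43, adjusted p = 9.16e-07), FGF19 from 46.9 and 65.9 CPM to 332 and 339 CPM (2.56 ± 0.52, 0.000646), and FGF3 from 0.307 and 0.736 CPM to 36 and 12.5 CPM (5.51 ± 0.71, 1.05e-05). Without MPS replicate 2 the values for FGF10 and FGF3 were 4.31 and 6.26, and without MPS-LM replicate 1 that of FGF3 was 4.62. The highest 24 h library lay below the lowest MPS-LM library for each. FGF8 fell from 107 and 145 counts to 0 and 2 counts, at least 37.1-fold (adjusted p = 0.000349). FGF17 fell from 36 and 42.1 CPM to 0.931 and 0.618 CPM (-5.68 ± 0.88, 3.17e-05), FGF18 to 0.174 and 0.285 CPM (-4.30 ± 0.69, 4.45e-05), and FGF2 from 93.8 and 94.1 CPM to 30.3 and 43.8 CPM (-1.34 ± 0.28, 0.000751).

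The crossed design allows the 3 media of day 2 to be compared over all 4 PS populations. LM medium stood apart from both others by high FGF10 and by the loss of FGF8 and FGF17. FGF19 was higher in LM medium as a mean over the PS populations. In LM against PM medium 7 of 8 ligands were called (42% of all genes), 3 higher (21%) and 4 lower (21%). In LM against DE(b) medium 7 were called (39.6%), 3 higher (19.8%) and 4 lower (19.8%). In DE(b) against PM medium 6 were called (43%), 1 higher (21.4%) and 5 lower (21.6%). The media differ in several agents at once, and which agent goes with which difference cannot be told apart.

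FGF10 separated LM medium from all others without overlap. It read 57.8 and 102 CPM in DE(a)-LM, 131 and 122 CPM in APS-LM, 94.9 and 63.4 CPM in MPS-LM, and 34.4 and 21.7 CPM in PPS-LM, against at most 19.3 CPM in any PM library and 3.37 CPM in any DE(b) library. The log2 difference was 3.85 ± 0.22 against PM (adjusted p = 3.52e-12) and 5.82 ± 0.26 against DE(b) (3.48e-14). FGF10 was lower in DE(b) than in PM medium (-1.97 ± 0.26, 1.31e-06), where libraries overlapped. FGF19 read 5.74 and 23.1 CPM in DE(a)-LM, 40.7 and 135 CPM in APS-LM, 332 and 339 CPM in MPS-LM, and 58.9 and 59.7 CPM in PPS-LM. As a mean over the PS populations it was higher in LM than in PM medium by 2.18 ± 0.27 (adjusted p = 5.35e-07) and than in DE(b) medium by 5.29 ± 0.33 (1.19e-11), and both comparisons had libraries that overlapped. From PPS origin FGF19 was alike in LM and PM medium, with means of 59.3 CPM in PPS-LM and 59.6 CPM in PPS-PM. From DE(a) origin the means were close, at 14.4 CPM in DE(a)-LM and 12.3 CPM in DE(a)-PM. FGF19 in DE(b) medium was at most 6.51 CPM. FGF3 was higher in LM than in PM medium as a mean over the PS populations by 1.25 ± 0.31 (adjusted p = 0.00321), with overlap. From PPS origin FGF3 went the other way, at 3.66 and 2.24 CPM in PPS-LM against 19.9 and 17.9 CPM in PPS-PM. In DE(b) medium it was at 0 in both replicates of DE(a), APS and MPS cells and at 1 and 4 counts in PPS cells, all below every LM library. The summed amnion markers were also highest in LM medium, at 184 and 229 CPM in DE(a)-LM, 62.1 and 77.8 CPM in APS-LM, 67 and 98.5 CPM in MPS-LM and 226 and 312 CPM in PPS-LM, lowest in APS-LM, where FGF10 was highest. Their part in these results was not tested.

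The promoters of FGF3 and FGF10 are shown because both genes were higher in LM medium as a mean over the PS populations and both were in the promoter table. None of the 3 motifs was found in either, which says only that these letters are not in these 250 bases. The 250 bases were taken before the RefSeq start. In GENCODE v44 FGF10 begins at base 44389706 of the minus strand, so its stretch lies inside that annotated gene.
FGF3, chr11:69819417-69819666, minus strand: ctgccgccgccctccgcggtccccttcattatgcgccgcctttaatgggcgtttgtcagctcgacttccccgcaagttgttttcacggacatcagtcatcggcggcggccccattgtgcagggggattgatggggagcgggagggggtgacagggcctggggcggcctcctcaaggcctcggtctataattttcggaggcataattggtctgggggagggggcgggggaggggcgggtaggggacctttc
FGF10, chr5:44389421-44389670, minus strand: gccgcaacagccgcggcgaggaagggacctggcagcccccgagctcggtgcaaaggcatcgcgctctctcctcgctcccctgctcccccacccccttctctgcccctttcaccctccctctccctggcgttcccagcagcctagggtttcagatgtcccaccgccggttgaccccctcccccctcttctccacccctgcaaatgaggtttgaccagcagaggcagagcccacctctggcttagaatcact
Their GC contents were 64.4% and 65.6%.

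FGF8 and FGF17 showed the reverse. FGF8 had 0 to 2 counts in each of the 8 LM libraries, against 9.93 to 21.9 CPM in DE(b) medium and 4.63 to 72.8 CPM in PM medium. It was at least 145-fold lower in LM than in PM medium (adjusted p = 2.50e-10) and at least 95.7-fold lower than in DE(b) medium (5.75e-10). Between DE(b) and PM medium FGF8 did not pass (log2 -0.35 ± 0.35, adjusted p = 0.466). FGF17 ranged from 0.547 to 8.51 CPM in LM medium, from 53.2 to 243 CPM in PM medium and from 10.6 to 1190 CPM in DE(b) medium. The difference was -5.98 ± 0.42 for LM against PM (7.74e-11) and -7.42 ± 0.43 for LM against DE(b) (4.04e-12), and in both the groups did not overlap. FGF17 was higher in DE(b) than in PM medium as a mean over the populations (1.44 ± 0.31, adjusted p = 0.000639), with overlap, since PPS-DE(b) stayed at 10.6 and 52.3 CPM.

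FGF4 and FGF18 were lowest in LM medium as a mean over the PS populations, and FGF2 ranged from 24 to 109 CPM over the 3 media. FGF4 was lower in LM than in PM (log2 -3.11 ± 0.22, adjusted p = 8.48e-11) and DE(b) medium (-1.89 ± 0.24, 9.04e-07), and lower in DE(b) than in PM medium (-1.22 ± 0.18, 1.08e-05). From MPS origin FGF4 was higher in LM than in DE(b) medium, at 2.8 and 3.66 CPM against 1.39 and 1.03 CPM. FGF18 was at or below 3.76 CPM in all 24 libraries of day 2 and lower in LM than in PM medium by -1.92 ± 0.33 (6.24e-05). From DE(a) origin its mean was higher in LM than in DE(b) medium, at 0.668 against 0.275 CPM. Its differences of -1.09 ± 0.36 for LM against DE(b) (0.0187) and -0.83 ± 0.32 for DE(b) against PM (0.0403) were lost without some of the single libraries (up to 0.454, without DE(a)-DE(b) replicate 1, and up to 0.166, without MPS-PM replicate 2). No difference in FGF2 between media passed the test. The difference was -0.02 ± 0.14 for DE(b) against PM (adjusted p = 0.968), 0.24 ± 0.14 for LM against PM (0.183) and 0.26 ± 0.14 for LM against DE(b) (0.157). PM was the only day 2 medium with added bFGF protein.

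**Figure D3:**
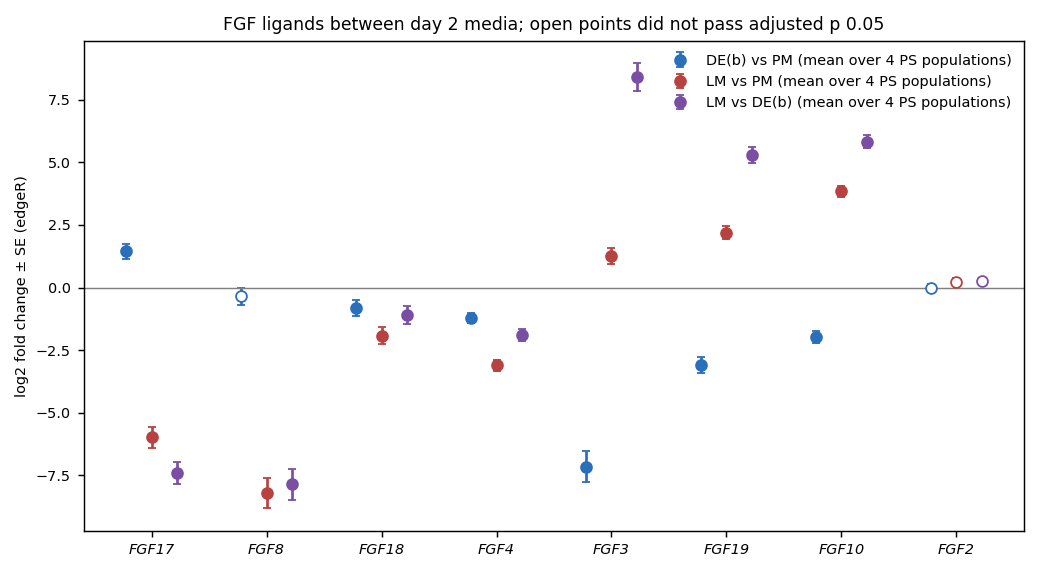
Log2 fold changes with SE (vertical axis, edgeR) of the 8 ligands (horizontal axis) between day 2 media, as means over the 4 PS populations, with filled points for calls at adjusted p under 0.05. FGF17 and FGF8 lie far below 0 and FGF10, FGF19 and FGF3 above 0 in both comparisons of LM medium. The fitted values of FGF8 in LM and FGF3 in DE(b) medium rest on libraries with few or no counts.

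Whether the PS population of origin still showed on day 2 was tested within each medium. In DE(b) medium 6 of 8 ligands differed among the 4 origins (16.6% of all genes were called), in PM medium 4 (7.47%) and in LM medium 6 (19.6%). The 6 in DE(b) medium include FGF2 (adjusted p = 0.00811), a call lost without PPS-DE(b) replicate 1 (0.0788), and the 6 in LM medium include FGF17 (0.0165), lost in 3 of 8 fits that left out 1 library (up to 0.0726, without DE(a)-LM replicate 1). FGF4 differed by origin in all 3 media, with an adjusted p of 1.55e-07 for DE(b), 7.58e-08 for PM and 1.13e-06 for LM. Cells of PPS origin held the most FGF4. It read 30.2 and 15.5 CPM in PPS-DE(b) and 51.7 and 84.6 CPM in PPS-PM, against 1.03 to 6.37 CPM and 3.32 to 8.34 CPM over the other 3 origins, and the libraries did not overlap. Against the DE(a) origin, the PPS origin was higher by 2.10 ± 0.35 (log2) in DE(b) medium (0.000163), 3.31 ± 0.35 in PM medium (2.98e-06) and 3.90 ± 0.50 in LM medium (8.22e-06). In LM medium the level was low throughout, at 5.42 and 5.53 CPM in PPS-LM and 0.446 and 0.334 CPM in DE(a)-LM. The pluripotency genes POU5F1, SOX2 and NANOG, measured beside FGF4, summed to 33.6 and 36.2 CPM in PPS-DE(b) and 21.8 and 18.7 CPM in PPS-PM, below the 223 and 166 CPM in DE(a)-DE(b) and the 62 and 47.3 CPM in DE(a)-PM. In MPS-PM, where FGF4 was at 6.81 and 6.68 CPM, they summed to 17.6 and 17.2 CPM, and in MPS-DE(b), with FGF4 at 1.39 and 1.03 CPM, to 50.4 and 29 CPM. These sums used 1 identifier per gene, where the 3 symbols had 6 tested identifiers, so they are partial. The part of the pluripotency genes in the FGF4 values was not tested.

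FGF17 kept the order of day 1 in DE(b) medium but not in PM medium. It read 1034 and 1190 CPM in DE(a)-DE(b), 1074 and 1145 CPM in APS-DE(b), 228 and 298 CPM in MPS-DE(b), and 10.6 and 52.3 CPM in PPS-DE(b) (adjusted p = 7.28e-05 among the origins). The first pair overlapped and the later steps did not. PPS-DE(b) was 34.5-fold lower than DE(a)-DE(b) (log2 -5.11 ± 0.73, adjusted p = 3.11e-05), one of 4 ligands called in that comparison (17.4% of all genes, 8.63% higher and 8.73% lower), the others, higher in PPS-DE(b), being FGF4, FGF10 (1.98 ± 0.55, 0.0152) and FGF18 (3.68 ± 0.67, 0.000442). The FGF10 call was lost without DE(a)-DE(b) replicate 1 (0.155) or PPS-DE(b) replicate 1 (0.127). Without PPS-DE(b) replicate 1 or 2 the FGF17 difference was -4.37 or -6.67, and without DE(a)-DE(b) replicate 1 or 2 the FGF18 difference was 5.85 or 2.91 and that of FGF10 1.303 or 3.115. FGF18 read 3.76 and 3.44 CPM in PPS-DE(b) and at most 0.882 CPM in the other 6 DE(b) libraries. Markers of other fates moved with this comparison. All 3 paraxial genes were called higher in PPS-DE(b), summing to 80.6 and 73.6 CPM against 2.27 and 1.92 CPM in DE(a)-DE(b). All 3 lateral genes were also higher, at 110 and 75.7 CPM against 0.542 and 0.698 CPM, and 2 of 3 amnion genes, at 15.3 and 12.9 CPM against 1.68 and 2.03 CPM. Of the 3 endoderm genes 1 was called, lower, and their sum was 582 and 797 CPM against 881 and 1168 CPM. Their part in the ligand differences was not tested. In PM medium FGF17 was at 53.2 and 157 CPM, 54.9 and 143 CPM, 57.2 and 190 CPM, and 90.4 and 243 CPM from DE(a) to PPS, all groups overlapping (adjusted p = 0.913). In LM medium it decreased from 8.51 and 5.12 CPM in DE(a)-LM to 0.578 and 0.547 CPM in PPS-LM (-3.47 ± 0.96, adjusted p = 0.0161), a call lost without DE(a)-LM replicate 1 (0.0917), PPS-LM replicate 1 (0.118) or PPS-LM replicate 2 (0.112).

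In PM medium FGF3, FGF10 and FGF19 were highest in cells of PPS origin, as FGF4 was. FGF3 read 0.425 and 0.393 CPM in DE(a)-PM, 0.622 and 0.555 CPM in APS-PM, 3.81 and 4.04 CPM in MPS-PM, and 19.9 and 17.9 CPM in PPS-PM (adjusted p = 3.53e-05). The 4 groups did not overlap. FGF10 read 0.799 and 1.85 CPM, 2.58 and 3.76 CPM, 8.27 and 9.43 CPM, and 13.8 and 19.3 CPM in the same order (4.79e-05), also without overlap. FGF19 read 9.65 and 15 CPM, 4.04 and 6.41 CPM, 17.1 and 20.5 CPM, and 34.8 and 84.4 CPM (0.000611), lowest in APS-PM and highest in PPS-PM. PPS-PM exceeded DE(a)-PM by 5.53 ± 0.72 (log2) for FGF3 (9.19e-05), 3.68 ± 0.48 for FGF10 (3.40e-05) and 2.30 ± 0.53 for FGF19 (0.00774), and with FGF4 these were the 4 of 8 ligands called (8.61% of all genes, 3.67% higher and 4.95% lower). Without DE(a)-PM replicate 2 the FGF10 value was 4.39. The FGF19 call was lost without DE(a)-PM replicate 1 (0.138) or PPS-PM replicate 2 (0.170).

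In LM medium the ligands peaked in different origins. FGF19 was highest in MPS-LM, at 332 and 339 CPM, above the next highest library of any condition at 135 CPM (adjusted p = 1.18e-05 among the origins). FGF3 was highest in MPS-LM too, at 36 and 12.5 CPM (0.000147), 2 replicates that lay on either side of both PPS-PM libraries. FGF10 was highest in APS-LM, at 131 and 122 CPM, and lowest in PPS-LM (0.00333). That call was lost without PPS-LM replicate 2 (0.0689). FGF2 read 47.5 and 37 CPM, 33.5 and 26.9 CPM, 30.3 and 43.8 CPM, and 82.2 and 109 CPM from DE(a)-LM to PPS-LM (0.000196), and both PPS-LM libraries were above the other 6.

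PPS-LM and DE(a)-LM, the ends of the series, differed in 5 ligands (14.3% of all genes), 3 higher (6.52%) and 2 lower (7.81%) in PPS-LM. FGF2 was higher in PPS-LM by 1.28 ± 0.28 (log2, adjusted p = 0.00243) and FGF19 by 2.10 ± 0.53 (0.00791), while FGF10 was lower by -1.43 ± 0.39 (0.0153). The FGF19 call was lost without DE(a)-LM replicate 1 (0.132, at 1.42; 3.51 without DE(a)-LM replicate 2) and the FGF10 call without DE(a)-LM replicate 2 (0.237, at -0.91) or PPS-LM replicate 2 (0.189). The other 2 were FGF4 and FGF17, given above.

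In PM medium FGF8 and FGF17 differed between replicates more than most genes did. The main fit has no term for replicate number, so its tests in PM medium count these differences as spread. FGF8 read 5.88 and 19.7 CPM in DE(a)-PM, 4.63 and 21.6 CPM in APS-PM, 5.42 and 35.5 CPM in MPS-PM, and 20.6 and 72.8 CPM in PPS-PM. Replicate 2 was higher in all 4, by 3.36 to 6.55 times, and for FGF17 by 2.60 to 3.33 times. The mean difference of log2 values between replicates in PM medium was larger in size than that of FGF8 (1.97) for 0.168% of 17895 genes and than that of FGF17 (1.51) for 0.436%. In DE(b) medium FGF17 was also higher in replicate 2 in all 4 conditions, by 1.07 to 4.91 times. Its mean difference there was 0.72 (log2), exceeded in size by 1.64% of genes. Within replicate 1 alone and within replicate 2 alone, PPS-PM had the highest FGF8 and FGF17 of the 4 origins. Other genes moved with them. EGR1, an early gene of ERK signaling, was higher in replicate 2 in all 4 PM conditions, at 27.7 to 111 CPM in replicate 1 and 119 to 240 CPM in replicate 2. TBXT, at 133 to 402 CPM and 336 to 557 CPM, and MIXL1, at 75.9 to 172 CPM and 122 to 379 CPM, also had higher values in all 4. EGR1 was also higher in replicate 2 in the 4 populations at 24 h, by 4.22 to 11.3 times, where FGF8 and FGF17 differed by a mean of 0.38 and 0.073 (log2). The part of these genes in the ligand values was not tested. FGF10 and FGF19 were also higher in replicate 2 in all 4, by 1.14 to 2.32 and 1.19 to 2.43 times. FGF2 went the other way, with replicate 2 at 0.513 to 0.749 times replicate 1 in all 4, and FGF3 ranged from 0.892 to 1.06 times.

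**Figure D4:**
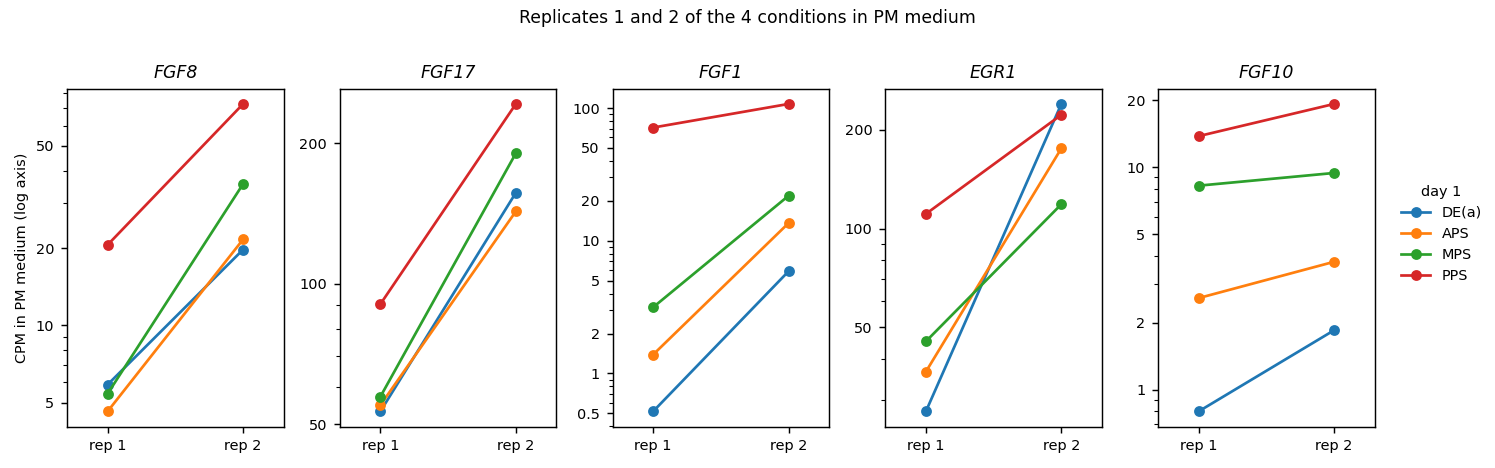
Each panel shows CPM on a log axis (vertical) in replicates 1 and 2 (horizontal) of the 4 conditions in PM medium, with lines joining the replicates of 1 condition. FGF8, FGF17, the related ligand FGF1 and the ERK response gene EGR1 are higher in replicate 2 in all 4 conditions, as is FGF10, by 1.14 to 2.32 times.

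How much the day 1 difference depended on the day 2 medium was tested as an interaction over the 12 conditions of day 2. It was called for 6 of 8 ligands, FGF3, FGF4, FGF10, FGF17, FGF18 and FGF19 (13.1% of all genes), and not for FGF2 (adjusted p = 0.602) or FGF8 (0.631). FGF3 held at most 4 counts in any DE(b) library and FGF18 at most 3.76 CPM in any day 2 library, so both calls rest partly on low values. These 6 calls held in each of the 24 fits that left out 1 library.

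Placed in order over the 17 condition means, neighbours often could not be separated. The libraries of neighbouring conditions overlapped in 9 of 16 steps for FGF4, FGF10, FGF17 and FGF19, in 11 for FGF3 and FGF8, in 12 for FGF18 and in 13 for FGF2. The top of the order stood clear of the next condition for FGF2 (control), FGF10 (APS-LM), FGF18 (PPS-24h) and FGF19 (MPS-LM). For FGF3 (MPS-LM before PPS-PM), FGF4 (PPS-24h before MPS-24h), FGF8 (PPS-PM before DE(a)-24h) and FGF17 (DE(a)-DE(b) before APS-DE(b)) the highest and second conditions overlapped.

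As a description over the 17 condition means of log2(CPM + 1), which share media, libraries and depth, FGF8 and FGF17 had the highest correlation among the 28 pairs of ligands (Pearson r = 0.863). FGF4 and FGF18 followed at 0.780 and FGF3 and FGF10 at 0.735. The lowest was that of FGF8 and FGF10, at -0.651. The 3 neighbours on chromosome 11 did not share one pattern, with 0.681 for FGF3 and FGF19, 0.333 for FGF4 and FGF19 and -0.079 for FGF3 and FGF4.

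Among 14639 other tested genes at or above 1 CPM on average, those most like each ligand by the same measure were as follows. For FGF17 they were DMTN (r = 0.960), SERAC1 (0.929) and GNAL (0.923), and for FGF8 they were DTWD2 (0.932), NT5DC3 (0.926) and NTN1 (0.914). DMTN, which encodes an actin-bundling protein of the red cell membrane, is also the next gene along the chromosome. It starts 185 bases after the end of FGF17 on the same strand. FGF10 was followed by SH3RF2 (0.950) and SVEP1 (0.935), FGF19 by LYSMD2 (0.910), REXO2 (0.903) and TEK (0.884), and FGF3 by FIZ1 (0.872), TNFAIP3 (0.869) and KLHL8 (0.866). FGF4 was followed by ACTN4 (0.941), SRF (0.928) and PRR23D2 (0.915), FGF2 by MT1E (0.950), MET (0.939) and PCDHA11 (0.922), and FGF18 by APOPT1 (0.923), CYP24A1 (0.916) and ZFP64 (0.888).

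Of the receptor genes, FGFR2 and FGFR3 were higher in LM medium than in both others. Of 7 receptor and co-receptor genes, 3 were called against the control in DE(a) (1 higher and 2 lower, where 19% of all genes were called), 4 in APS (2 and 2, 24.5%), 5 in MPS (3 and 2, 30%) and 3 in PPS (2 and 1, 29.8%). FGFR1, the main receptor of hPSCs, was at 600 and 512 CPM in the control and from 162 to 772 CPM in all differentiated libraries. FGFR2, whose epithelial form is the known receptor of FGF10 and FGF3, was at 118 and 122 CPM in the control. It fell in all 4 PS populations, to 10.1 and 8.2 CPM in PPS (log2 -3.69 ± 0.37, adjusted p = 9.74e-08). In LM medium, where FGF10 was highest, FGFR2 ranged from 131 to 439 CPM and exceeded PM medium by 4.80 ± 0.19 (7.58e-15) and DE(b) medium by 2.67 ± 0.17 (2.34e-11). FGFR3 was also higher in LM than in PM (2.56 ± 0.20, 4.19e-10) and DE(b) medium (2.13 ± 0.19, 7.01e-09). In LM against PM 3 of the 7 were called, a share near the 42% of all genes, all higher, the last being KL (adjusted p = 0.0159). KLB, the co-receptor that FGF19 needs, was at most 1.36 CPM in any library, and KL, the co-receptor of FGF23, at most 2.85 CPM, so that its call rests on few counts.

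Most feedback and response genes of ERK signaling were lower in LM medium. Of 14 listed genes, 12 were called in LM against PM medium (2 higher and 10 lower, where 21% of all genes were called each way), 11 in LM against DE(b) (1 and 10, 19.8% each way) and 12 in DE(b) against PM (5 and 7, 21.4% and 21.6%), with medians of -1.06, -0.61 and -0.60 (log2) where the median of all genes was 0.00, 0.02 and -0.01. IL17RD, an inhibitor of FGF signaling, was at 22.4 to 70.7 CPM in LM medium and 328 to 721 CPM in PM medium (log2 -3.89 ± 0.12, adjusted p = 3.34e-16). ETV4, a transcription factor raised by ERK, was at 6.38 to 33.9 CPM in LM medium against 105 to 185 CPM in PM medium (-2.75 ± 0.22, 6.32e-10). DUSP4, an ERK phosphatase, was highest in DE(b) medium, at 101 to 619 CPM, and exceeded PM medium by 4.56 ± 0.15 (4.71e-16). At 24 h 8 of the 14 were called against the control in DE(a) (5 higher and 3 lower, 19% of all genes), 7 in APS (4 and 3, 24.5%), 7 in MPS (5 and 2, 30%) and 9 in PPS (6 and 3, 29.8%). SPRY4, a Sprouty inhibitor, was at 200 and 173 CPM in the control and 1068 and 936 CPM in PPS at 24 h (2.45 ± 0.38, 2.99e-05), its highest condition.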

How the data were processed

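Bulk RNA sequencing of wild-type ESI017 cells gave 34 libraries in 17 conditions, and groups and replicate numbers were taken from the labels. The authors deposited estimated counts per gene, made with Salmon 1.10.2 and R 4.4.2 against GRCh38 per the submitters' processing notes. The strand setting and the annotation release are not given in the sources used here. Every column of values matched a sample, and libraries of other cell lines were not analysed here. Libraries held 15522780 to 23439799 estimated counts.

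Values were rounded and tested with edgeR 4.0.16 in R 4.3.3 (TMM scaling, filterByExpr, 1 mean per condition, quasi-likelihood test). Of 37951 identifiers 17895 were tested, with a common dispersion of 0.0611 and 17 residual degrees of freedom, and p-values were adjusted over all of them by the Benjamini-Hochberg method at 0.05. The SE is the absolute log2 fold change divided by the square root of F. CPM used the deposited totals, and floors of 3 counts cover counting error only. The fit was tested on simulated data. Alternatives were RLE scaling, no filter, DESeq2 1.42.0, a replicate block, a fit restricted to the libraries compared and each library left out in turn, keeping the genes and dispersion trend of the full fit. Tables were made with Python 3.11.15, pandas 2.3.3, numpy 2.4.6 and matplotlib 3.10.9. Positions came from GENCODE v44 and promoters from RefSeq.

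The members and the gene lists were chosen with earlier results of these data known. Named were all 8 ligands, for each the 3 genes with the highest Pearson r over the 17 condition means of log2(CPM + 1) among tested genes at or above 1 CPM on average, list genes with a condition mean of at least 10 CPM, and markers. One gene that the rule names is not reported here. KL and KLB, below that level, were named after their values were seen.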

Additional observations from a re-analysis of the deposited data

Results flagged for a closer look

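The effect of the day 1 treatment differed between day 2 media for 6 ligands, by the interaction term of edgeR over the 12 conditions of day 2. The adjusted p was 2.94e-05 for FGF19, 3.61e-05 for FGF10, 8.37e-05 for FGF4, 0.00107 for FGF17, 0.00198 for FGF3 and 0.00268 for FGF18. The calls of FGF3 and FGF18 rest partly on low values, as given above. FGF17 fell from DE(a) to PPS origin in DE(b) medium and not in PM medium, while FGF10 was highest from PPS origin in PM medium and lowest from it in LM medium. FGF19 was highest from MPS origin in LM medium and from PPS origin in PM medium.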

How the results depend on the processing

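Over 165 differences and tests of single ligands, RLE scaling and DESeq2 each left 164 on the same side of the threshold with the same direction. Under both, and when each comparison was fitted on its own libraries, FGF4 in PPS against MPS at 24 h, which was -0.0084 (log2), turned to 0.0116, 0.0117 and 0.0017, all far from the threshold. Without the filter on low counts 27023 genes were tested. This added 23 calls and lost 2, FGF18 in APS-PM against APS (0.0701) and in DE(b) against PM medium (0.0640, leaving 5 ligands called of 6). Among the added calls was FGF8 by day 1 treatment in PM medium, where its replicates differed by 3.36 to 6.55 times. The number called was 4 instead of 1 for MPS against APS, 2 instead of 1 for PPS against MPS, 8 instead of 4 for the day 1 treatment at 24 h and 7 instead of 4 for it in PM medium. Fitting each comparison on its own libraries called 3 instead of 5 for APS-PM against APS. The causes were not tested. Leaving out 1 library gave counts of 4 to 6 for APS against the control (main count 7), 0 to 0 for both MPS against APS and PPS against MPS, 3 to 4 for APS-PM against APS, 3 to 4 for PPS-LM against DE(a)-LM and 2 to 4 for the day 1 treatment at 24 h.

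The sign of some log2 differences that had not passed changed when 1 library was left out. At 24 h these were FGF10 in MPS against APS (-0.78 to 0.21), FGF2 in APS against DE(a) (-0.12 to 0.21), and in PPS against MPS FGF3 (-0.0027 to 1.65), FGF4 (-0.33 to 0.43), FGF8 (-1.05 to 0.084) and FGF19 (-0.070 to 0.48). On day 2 they were FGF8 in APS-PM against APS (-1.92 to 0.31), FGF17 (-0.22 to 1.69) and FGF2 (-0.038 to 0.90) in PPS-PM against DE(a)-PM, FGF19 in DE(b) medium between PPS and DE(a) origin (-0.28 to 0.57), and in DE(b) against PM medium FGF2 (-0.12 to 0.12) and FGF8 (-0.55 to 0.14).

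The labels do not say whether replicate numbers pair the libraries, and the main fit has no term for them. The correlation of replicate deviations over 136 pairs of conditions was -0.057 to 0.293 with a median of 0.0641. Of these 122 exceeded 0 and 28 exceeded 0.1, and the mean within PM medium was 0.185. Deviations shared by the libraries of 1 replicate therefore stay in the spread of the main fit. With a replicate block 6 ligands were called for APS against the control (FGF3 at an adjusted p of 0.0512), 6 for DE(a)-DE(b) against DE(a) (FGF17 added at 0.0261), 6 for APS-PM against APS (FGF17 added at 0.0113) and 5 for PPS-PM against DE(a)-PM (FGF8 added at 0.0411), and no other call of a ligand changed. Over all genes it raised the count from 1098 to 1717 for PPS against MPS and from 3359 to 4441 for the day 1 treatment at 24 h.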

Other observations

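Of 10 other secreted FGF ligands 6 had enough counts to be tested, and FGF1 and FGF9 were those above 10 CPM in any condition. FGF1, close to FGF2, was at 71.3 and 107 CPM in PPS-PM, 3.15 and 21.8 CPM in MPS-PM, 1.39 and 13.6 CPM in APS-PM and 0.518 and 5.89 CPM in DE(a)-PM, and at most 2.57 CPM in any library outside PM medium. FGF9 was at 32.2 and 26.4 CPM in PPS-PM, 18.1 and 18.6 CPM in MPS-PM, 5.8 and 15.5 CPM in APS-PM and 1.83 and 9.4 CPM in DE(a)-PM, and its only other condition above 10 CPM was PPS-LM, at 19.3 and 16.3 CPM.

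DMTN, singled out after its values were seen, begins 185 bases past the end of FGF17 on the same strand and had the condition means most like those of FGF17. DMTN read 22 and 29 CPM in DE(a)-DE(b) and 30.1 and 30.8 CPM in APS-DE(b), its highest conditions, 0.316 and 0.957 CPM in the control and 0.315 and 0.219 CPM in PPS-LM. In PM medium DMTN was higher in replicate 2 in all 4 conditions, as FGF17 was. Whether reads of one gene were counted for the other was not tested.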
